A study of Mus musculus with 9 samples.

Results

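The regions described here are the stretches of open chromatin at 10 genes. Of these, Gcgr, Glp1r, Gipr, Sstr2, Sstr3, Insr, Adrb1, Ffar1 and Ptger3 encode receptors that act on glucagon secretion. Gng7 encodes a G protein subunit and was chosen with an earlier result at this gene in these data known. A region was taken as belonging to a gene when it overlapped the gene's body on mm10 or the 10 kb on either side. By that rule 30 of the 80827 consensus regions belong to 9 of the 10 genes, and Gcgr has 0. The genome was mouse, and the cells were alphaTC1, an established line derived from pancreatic alpha cells. ATAC-seq, in which a transposase cuts and tags accessible DNA, was done 5 days after transduction with empty vector (EV), an shRNA against the splicing factor Smndc1 (labelled sh95) or an shRNA against the chromatin remodeler Atrx. Each group has 3 libraries, which the labels call biological replicates. All 3 groups share the cell line, the 5 days in culture and the act of transduction, so no library shows untransduced cells.

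Alpha cells release glucagon under the control of hormones, nutrients and nerves, and most of these inputs arrive at receptors coupled to G proteins. Receptors that couple to the stimulatory G protein, such as those for glucagon, GLP-1 (glucagon-like peptide 1), GIP (glucose-dependent insulinotropic polypeptide) and adrenaline, raise cyclic AMP. Those for GIP and adrenaline favour release. Receptors that couple to inhibitory G proteins, such as those for somatostatin and the EP3 receptor for prostaglandin E2, lower cyclic AMP and restrain release. The insulin receptor is a tyrosine kinase through which neighbouring beta cells restrain alpha cells. A G protein is made of an alpha subunit and a beta-gamma pair, and Gng7 encodes a gamma subunit.

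Counts over all regions ran from 5.29 to 8.15 M per library. The strongest 10% of regions held 38.5 to 38.8% of the counts in replicate 3 of each group and 43.3 to 48.8% in the other 6 libraries. Levels are given with TMM factors, as counts per M (CPM). A TMM factor is 1 value per library and does not correct this difference between strong and weak regions. Each call was therefore also made with trended offsets, which correct each library with a curve over signal strength. All 8 alpha cell markers examined, Gcg among them, had a region within 10 kb, and 6 had one at a gene end, within 1000 bp beyond it or 500 bp into the gene. Summed over the gene-end regions and divided by the number of marker genes, alpha cell markers stood at 28.1 to 39.7 CPM with EV, 35.8 to 47.9 with Smndc1 shRNA and 31.3 to 45.2 with Atrx shRNA. Of 7 beta cell markers 2 had a gene-end region, at 13.4 to 22.5 CPM over the 9 libraries, and none lay at the ends of Ins1, Ins2, Pdx1, Slc2a2 or Ucn3. Per marker gene, gene-end regions of delta cell (1 of 3 markers), exocrine (1 of 4), fibroblast (1 of 3) and endothelial (0 of 3) lists stood at 5.47 to 11.0, 3.57 to 6.48, 1.30 to 2.74 and 0 CPM. The immune list (1 of 2, with none at Ptprc) stood at 6.96 to 8.36 CPM with EV, 9.40 to 10.8 with Smndc1 shRNA and 7.87 to 10.2 with Atrx shRNA, so that EV and Smndc1 shRNA did not overlap, and its part in the results was not tested. In bulk ATAC-seq, fewer cells with an open region and less opening per cell cannot be told apart. Open chromatin is not expression, and no result below is a level of RNA or protein.

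The members differ in where their open chromatin lies. Of the 30 regions, 14 overlap a member's body and 16 lie outside it, and 9 lie in the body of another coding gene. Of the 8 members with a start in the RefSeq table, 4 (Sstr3, Adrb1, Ptger3 and Gng7) have a region within 1 kb of it, and 3 (Sstr3, Ptger3 and Gng7) have a start inside a region. Over all 17492 coding genes with a start in that table, 55.2% have a region within 1 kb and 49.4% have a start inside one. Gcgr, Glp1r, Sstr2 and Ffar1 thus had no region at their annotated start. The 300-base start windows of 4 members are printed here 5′ to 3′ from RefSeq (GRCm38.p6). Of these, 3 were chosen because they hold a start inside a region. That of Sstr2 was chosen because its start lies 1307 bp from the member region with the smallest p with Atrx shRNA and TMM factors. Capitals mark matches to the motifs searched.
Gng7: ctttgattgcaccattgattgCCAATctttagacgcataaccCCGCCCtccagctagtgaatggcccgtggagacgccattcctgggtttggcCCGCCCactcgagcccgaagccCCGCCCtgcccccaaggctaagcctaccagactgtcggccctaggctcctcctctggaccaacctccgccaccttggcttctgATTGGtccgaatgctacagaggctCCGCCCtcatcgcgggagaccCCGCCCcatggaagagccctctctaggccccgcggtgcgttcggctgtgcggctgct
Sstr2: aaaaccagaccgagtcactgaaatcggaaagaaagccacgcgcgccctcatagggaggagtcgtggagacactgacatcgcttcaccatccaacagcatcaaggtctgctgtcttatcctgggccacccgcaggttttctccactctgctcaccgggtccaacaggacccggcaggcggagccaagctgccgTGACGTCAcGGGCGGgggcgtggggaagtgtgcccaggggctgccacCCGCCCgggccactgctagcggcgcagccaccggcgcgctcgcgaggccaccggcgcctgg
Sstr3: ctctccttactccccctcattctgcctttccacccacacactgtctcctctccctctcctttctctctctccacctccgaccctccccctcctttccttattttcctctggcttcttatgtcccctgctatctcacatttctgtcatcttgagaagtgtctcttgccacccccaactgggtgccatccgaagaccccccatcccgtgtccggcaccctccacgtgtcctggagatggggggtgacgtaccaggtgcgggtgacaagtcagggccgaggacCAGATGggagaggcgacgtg
Ptger3: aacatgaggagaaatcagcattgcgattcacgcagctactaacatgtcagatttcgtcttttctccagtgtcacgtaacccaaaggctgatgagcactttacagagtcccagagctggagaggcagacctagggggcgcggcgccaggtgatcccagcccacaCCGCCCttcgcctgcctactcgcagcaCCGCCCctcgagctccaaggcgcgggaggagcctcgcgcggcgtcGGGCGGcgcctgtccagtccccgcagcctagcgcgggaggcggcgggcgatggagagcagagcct

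The Gng7 window lies at chr10:81014876-81015175 (minus strand), the Sstr2 window at chr11:113619077-113619376 (plus), the Sstr3 window at chr15:78544296-78544595 (minus) and the Ptger3 window at chr3:157566626-157566925 (plus). All 300 bases of the Gng7 and Sstr3 windows and 128 of the Ptger3 window lie inside a consensus region, against 0 of the Sstr2 window. The motifs searched on both strands were TGACGTCA (the cyclic AMP response element, CRE), TGACTCA (AP-1), TGTTTAC (forkhead), CCAAT (the box of that name), GGGCGG (GC box), CAGATG (an E-box of the NeuroD type) and TATAAA (a core promoter motif). No 2 matches overlap in the 4 printed windows. The Gng7 window holds 5 GC boxes and 2 CCAAT boxes, at a GC content of 63.7% and with 20 CpG dinucleotides. The Sstr2 window holds the CRE, 58 bases before the start, and 2 GC boxes. The Sstr3 window holds 1 E-box, 30 bases after the start, and the Ptger3 window 3 GC boxes. Of all 32851 windows of this length in the table, 1.79% hold the CRE, 5.2% AP-1, 3.65% the forkhead motif, 37.4% a CCAAT box, 35.7% a GC box, 17.2% the E-box and 13.6% the core promoter motif. Among the 10 member windows (Sstr3 and Gng7 have 2 each), the counts are 1, 0, 0, 3, 6, 2 and 0 in that order. A match is a run of letters and not evidence of binding.

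**Figure D1:**
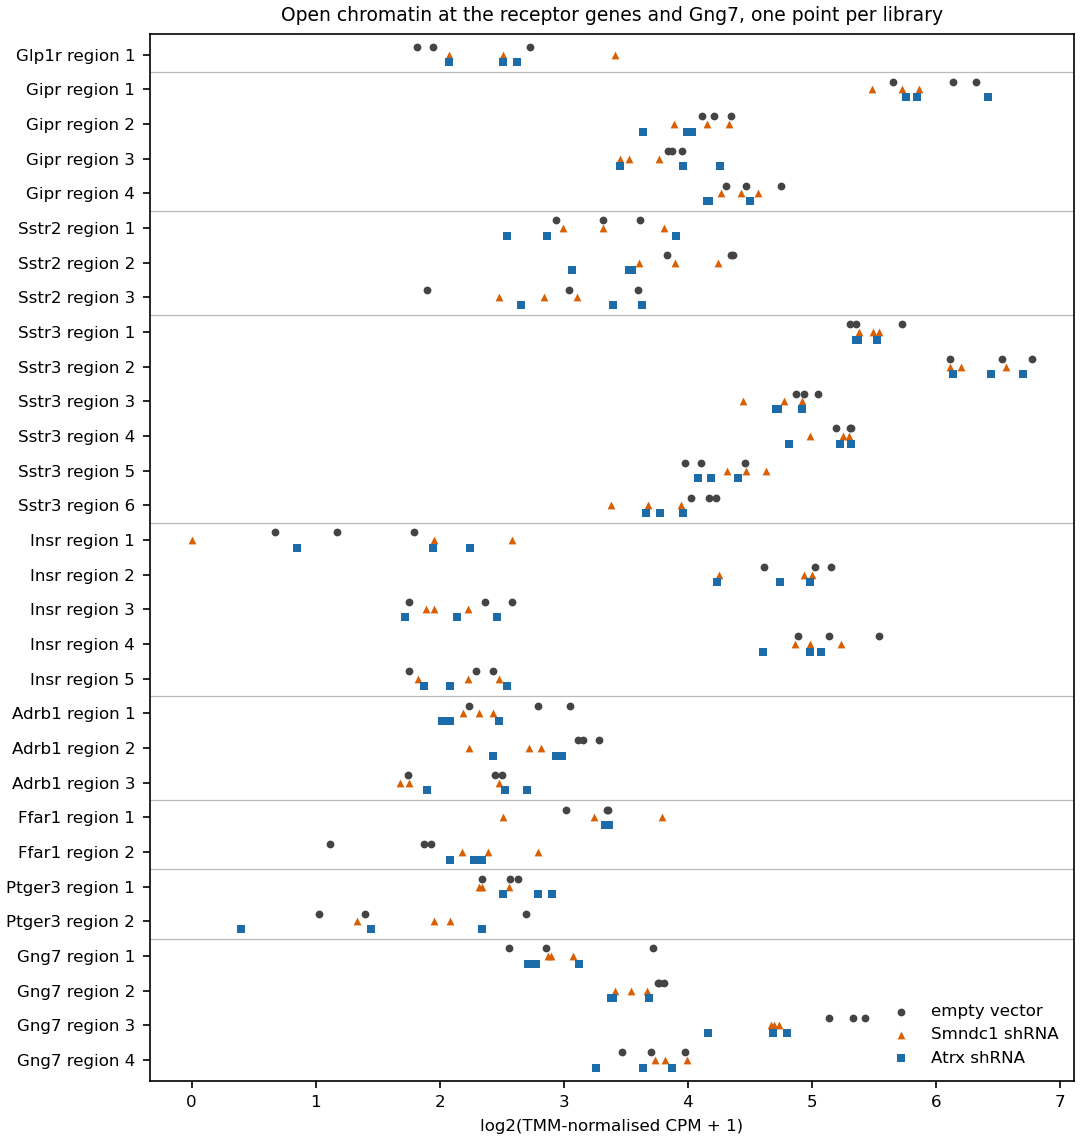
Each row is 1 of the 30 regions, numbered along the chromosome within each gene, and each point is 1 library, placed on the horizontal axis at log2(TMM-normalised CPM + 1). Black circles are empty vector, orange triangles Smndc1 shRNA and blue squares Atrx shRNA. The 3 black circles of Gng7 region 3, over the start of Gng7, sit to the right of all 6 other points in that row.

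Levels spanned most of the range of the whole data set. Scaled to length, the 9-library means of the 30 regions ran from the 8.11th to the 96.8th percentile of all regions, with a median at the 67.5th. The strongest was a region 8415 bp downstream of the nearest Sstr3 start, within C1qtnf6, at 71.7 CPM per kb, followed by the Qpctl and Snrpd2 region near Gipr at 54.0. Next came a second region in C1qtnf6 near Sstr3 (46.6), the Gng7 start (45.5), and 2 regions at Insr (44.5 and 41.8). With EV alone these 6 stood at 75.7 ± 17.0, 58.8 ± 13.5, 47.3 ± 7.98, 60.8 ± 6.34, 49.3 ± 9.43 and 46.7 ± 11.1 CPM per kb (SD, n = 3). Sorted by those EV levels, each of the 6 differed from the next by less than the sum of their SDs, so their order is not resolved. The best region of Sstr2 stood at 19.9 CPM per kb over the 9 libraries, that of Ffar1 at 13.3, of Ptger3 at 9.81, of Glp1r at 9.23 and of Adrb1 at 8.91. In 9 of the 30 regions the mean was under 5 CPM, which limits what a test can show there.

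Of the incretin and glucagon receptor genes, Gcgr itself had 0 regions in its body (chr11:120529185-120538989) or the 10 kb on either side. Glp1r, whose product binds GLP-1, had 1 region, at chr17:30945433-30945933, downstream of the gene and 43566 bp from its start, near Umodl1. Its level was 2.52, 2.85 and 5.63 CPM in the EV libraries, 4.70, 3.22 and 9.64 with Smndc1 shRNA and 3.21, 5.15 and 4.70 with Atrx shRNA. The groups overlapped, and replicate 3 was the highest library of the EV and Smndc1 shRNA groups. Its log2 fold change was 0.68 ± 0.42 (SE) with Smndc1 shRNA and 0.25 ± 0.43 with Atrx shRNA, with adjusted p = 0.733 and 0.986 by edgeR's quasi-likelihood test. At counts of 17 to 57 per library, the 95% intervals of these changes ran from -0.16 to 1.51 and from -0.60 to 1.10. Single libraries moved both values: with 1 left out they ran from 0.12 (without Smndc1 shRNA replicate 3) to 1.11 (without EV replicate 3) and from 0.046 (without EV replicate 1) to 0.69 (without EV replicate 3).

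Gipr, which encodes the GIP receptor, had 4 regions, 1 in its body at chr7:19157311-19158292 and 3 outside it. Its strongest lies at chr7:19148971-19150092, over the bodies of Qpctl and Snrpd2 and within 1 kb of the Snrpd2 start, so its signal cannot be assigned to Gipr. It stood at 69.4, 79.1 and 49.4 CPM with EV, 52.0, 57.3 and 43.8 with Smndc1 shRNA and 84.4, 56.5 and 53.2 with Atrx shRNA. At these TMM levels replicate 3 was the lowest library in every group, and the groups overlapped. With levels from trended offsets replicate 3 was instead the highest with Smndc1 shRNA (54.4 CPM). The Smndc1 shRNA libraries (up to 54.4) then lay below EV (from 61.2). The log2 fold change was -0.37 ± 0.26 (adjusted p = 0.777, edgeR) with Smndc1 shRNA and -0.03 ± 0.26 (adjusted p = 0.999) with Atrx shRNA. The region in the Gipr body stood at 17.7 ± 1.52, 16.6 ± 2.65 and 13.9 ± 2.16 CPM with EV, Smndc1 shRNA and Atrx shRNA (SD, n = 3 each). The other regions of Gipr, at chr7:19172524-19173459 and in Eml2 within 1 kb of the Eml2 start, had group means of 11.0 to 14.2 and 18.5 to 22.0 CPM.

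Sstr2 encodes the somatostatin receptor through which delta cells are best known to restrain alpha cells. Its 3 regions all lie within the body of Slc39a11, a zinc transporter gene that spans the locus, and 1 of them, at chr11:113617331-113618020, ends 1307 bp upstream of the Sstr2 start. That region stood at 19.4, 13.2 and 19.6 CPM with EV, 11.2, 13.9 and 17.9 with Smndc1 shRNA and 7.38, 10.7 and 10.5 with Atrx shRNA. All 3 Atrx shRNA libraries were below all 6 others, and the EV and Smndc1 shRNA libraries overlapped. The log2 fold change with Atrx shRNA was -0.87 ± 0.24 with TMM factors, the smallest unadjusted p among the members in that fit (0.00061, edgeR). The change did not pass the threshold over all 80345 regions tested (adjusted p = 0.415, and 0.12 with trended offsets, at -0.79 ± 0.23). With Smndc1 shRNA it was -0.28 ± 0.23 (adjusted p = 0.831), and the difference between the shRNAs was 0.59 ± 0.25 with Smndc1 shRNA higher (adjusted p = 0.747). The regions 7075 bp upstream and 13060 bp downstream of the start had group means of 8.35 to 9.64 and 6.12 to 8.73 CPM, with the groups overlapping. The counts do not say which of the 2 genes a region acts on.

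**Figure D2:**
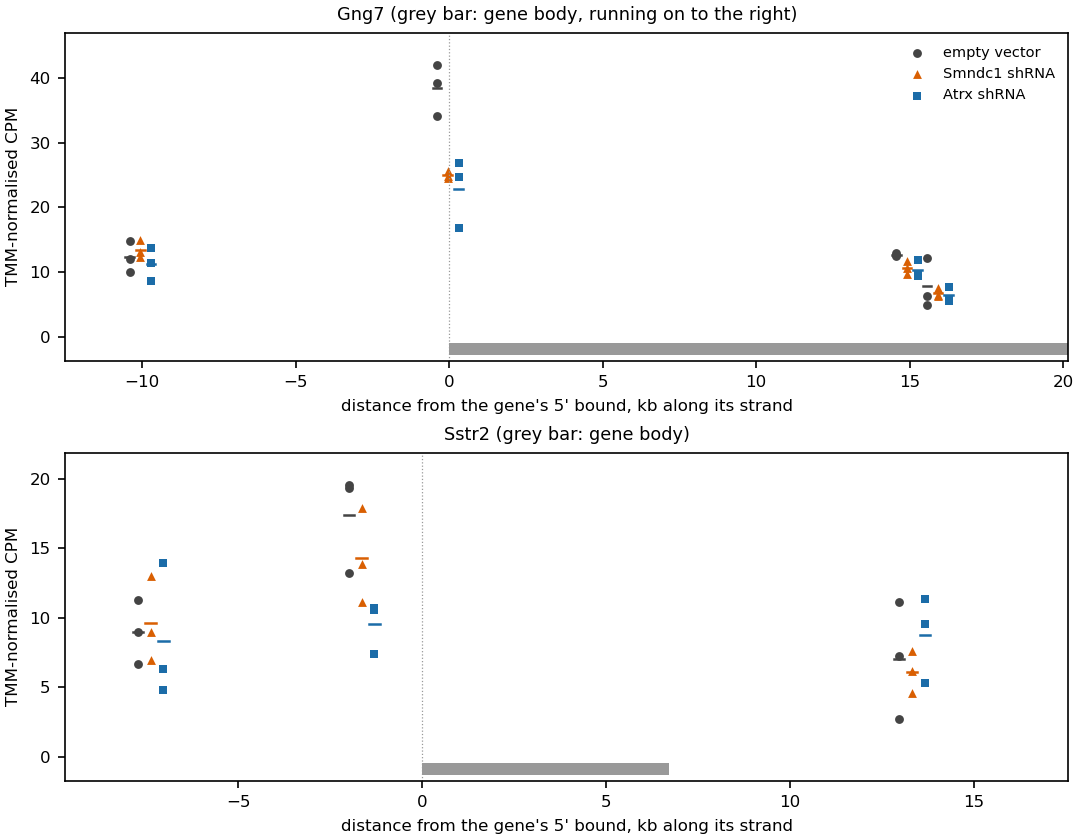
The regions of Gng7 (top) and Sstr2 (bottom) are placed by distance in kb from the 5′ bound of the gene along its strand, with TMM-normalised CPM on the vertical axis. Points are libraries, short lines are group means of 3 libraries, groups are set slightly apart sideways, and the grey bar is the gene body. At the Gng7 bound the EV libraries stand at 34.1 to 42.0 CPM and the other 6 at 16.9 to 26.9, while the regions at the far left and right of the Gng7 panel overlap between some or all groups.

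Sstr3, a somatostatin receptor gene whose product is found on primary cilia, had 6 regions, the most of any member. A region at chr15:78543984-78545106 holds a Sstr3 start and the printed window. It stood at 35.7, 38.8 and 38.5 CPM with EV, 30.7, 37.1 and 38.4 with Smndc1 shRNA and 38.7, 36.4 and 27.1 with Atrx shRNA. At these TMM levels 1 library of each shRNA group was low (replicate 1 with Smndc1 shRNA and replicate 3 with Atrx shRNA), and the groups overlapped. With levels from trended offsets those libraries (31.2 and 32.5 CPM) were close to another of their group (32.5 and 32.8). Replicate 3 then stood highest with EV (45.5) and Smndc1 shRNA (45.9). The log2 fold changes were -0.09 ± 0.24 and -0.14 ± 0.24, with 95% intervals from -0.56 to 0.38 and from -0.62 to 0.33. The region beside the other RefSeq start, at chr15:78541505-78542321, stood at 32.1, 28.3 and 29.6 CPM with EV, 20.7, 26.4 and 29.2 with Smndc1 shRNA and 25.2, 29.2 and 25.5 with Atrx shRNA. Its log2 fold changes were -0.24 ± 0.23 and -0.17 ± 0.23 (adjusted p = 0.868 and 0.981, edgeR), and the groups overlapped.

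The strongest Sstr3 region, at chr15:78531812-78532991, lies in C1qtnf6, the neighbouring gene. It stood at 91.5, 108 and 68.2 CPM with EV, 72.5, 93.8 and 68.1 with Smndc1 shRNA and 103, 86.2 and 69.4 with Atrx shRNA, with replicate 3 the lowest of each group. With levels from trended offsets replicate 3 was instead the highest with Smndc1 shRNA (86.7 CPM) and with Atrx shRNA (87.0). With log2 fold changes of -0.19 ± 0.27 and -0.05 ± 0.27, neither group stood clear of EV. A region over the 5′ bound of Sstr3, at chr15:78549235-78549853, was singled out after its values were seen. There the EV libraries (17.0, 15.3 and 17.7 CPM) were all above those with Smndc1 shRNA (9.41, 14.4 and 11.8) and Atrx shRNA (12.7, 11.6 and 14.6). Neither difference passed (-0.49 ± 0.23, adjusted p = 0.574 and -0.36 ± 0.23, adjusted p = 0.935, edgeR), and with levels from trended offsets replicate 3 with Atrx shRNA (15.8 CPM) overlapped the EV libraries (from 14.6). The 2 remaining regions had group means of 41.8 to 43.5 and 17.3 to 21.3 CPM.

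Insr, the insulin receptor gene, had 5 regions, of which 4 overlap its body. The strongest by total signal, at chr8:3279029-3279801, spans the upper-coordinate bound of the gene. It stood at 45.4, 34.2 and 28.6 CPM with EV, 36.6, 30.7 and 28.1 with Smndc1 shRNA and 32.7, 30.7 and 23.3 with Atrx shRNA. At these TMM levels replicate 1 was the highest and replicate 3 the lowest library of each group, and the groups overlapped. With levels from trended offsets replicate 3 was above replicate 2 with EV (33.4 and 31.0 CPM) and with Smndc1 shRNA (33.2 and 27.1). The Atrx shRNA libraries (up to 30.1) then lay below EV (from 31.0). The log2 fold changes were -0.18 ± 0.24 (adjusted p = 0.912, edgeR) with Smndc1 shRNA and -0.32 ± 0.24 (adjusted p = 0.952) with Atrx shRNA. An intragenic region at chr8:3220906-3221510 had group means of 29.8 ± 5.70 (EV), 26.3 ± 7.11 (Smndc1 shRNA) and 24.7 ± 6.47 CPM (Atrx shRNA; SD, n = 3 each). The 3 other regions were weak, with group means of 1.44 to 3.84 CPM, and 1 of them had 0 counts in replicate 2 with Smndc1 shRNA, which allows up to 0.508 CPM there (3 counts, counting error only).

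Adrb1 encodes the beta-1 adrenergic receptor, which raises cyclic AMP on binding adrenaline or noradrenaline. Of its 3 regions the one at its start, chr19:56721594-56722094, ends 23 bp upstream of the first transcribed base. It stood at 3.70, 7.26 and 5.94 CPM with EV, 3.97, 3.56 and 4.40 with Smndc1 shRNA and 3.05, 4.58 and 3.24 with Atrx shRNA. Replicates 2 and 3 with EV were the highest, replicate 1 with EV lay among the others, and the groups overlapped. With levels from trended offsets the Smndc1 shRNA libraries (up to 3.98 CPM) lay just below EV (from 4.07). For Adrb1 these gave log2 fold changes of -0.51 ± 0.41 (adjusted p = 0.825, edgeR) and -0.64 ± 0.42 (adjusted p = 0.935). The region with the most counts, 5108 bp downstream of the start at chr19:56727225-56727942, stood at 8.73, 7.91 and 7.66 CPM with EV, 6.03, 5.59 and 3.72 with Smndc1 shRNA and 6.90, 4.39 and 6.65 with Atrx shRNA. All 6 shRNA libraries were below all 3 EV libraries, with log2 fold changes of -0.66 ± 0.32 and -0.43 ± 0.32 that did not pass (adjusted p = 0.603 and 0.948, edgeR). With levels from trended offsets replicate 1 with Atrx shRNA (7.6 CPM) was above replicate 3 with EV (7.11), so these groups then overlapped. The third region, at group means of 3.05 to 4.34 CPM, overlapped between groups.

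Ffar1 encodes a receptor for long-chain fatty acids. Its 2 regions lie off its short gene body, which has no region. The stronger, at chr7:30859125-30859786 between Ffar1 and Ffar3, stood at 7.11, 9.20 and 9.23 CPM with EV, 4.70, 8.47 and 12.8 with Smndc1 shRNA and 9.31, 9.16 and 9.08 with Atrx shRNA. The Smndc1 shRNA libraries held both the lowest and the highest value, and the log2 fold changes were 0.02 ± 0.28 and 0.11 ± 0.28. The weaker region, within Cd22 at chr7:30867117-30867617, was singled out after its values were seen, as the member region with the highest fold change. It stood at 2.66, 1.17 and 2.82 CPM with EV, 3.53, 4.24 and 5.92 with Smndc1 shRNA and 3.85, 3.24 and 4.05 with Atrx shRNA, so that all 6 shRNA libraries were above the 3 EV libraries. The log2 fold changes of 1.04 ± 0.51 and 0.76 ± 0.51 rest on 9 to 35 counts per library and did not pass (adjusted p = 0.592 and 0.942, edgeR). With levels from trended offsets replicate 3 with Atrx shRNA (3.17 CPM) lay below replicate 1 with EV (3.22).

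Ptger3 encodes the EP3 receptor, which lowers cyclic AMP on binding prostaglandin E2. The region at its start, chr3:157566798-157567298, stood at 5.18, 4.93 and 4.07 CPM with EV, 3.97, 4.07 and 4.90 with Smndc1 shRNA and 5.94, 6.49 and 4.70 with Atrx shRNA. The groups overlapped, with the 2 highest libraries from the Atrx shRNA group. The log2 fold changes were -0.13 ± 0.39 and 0.27 ± 0.38, and their 95% intervals, from -0.89 to 0.63 and from -0.48 to 1.02, leave changes of either sign within the error. Its other region, 51837 bp into the gene, had 2 to 35 counts per library and group means of 2.03 to 2.71 CPM.

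At the start of Gng7 open chromatin was lower with both shRNAs than with EV, and this was the member region for which a difference passed a threshold with trended offsets. The call with Atrx shRNA there was known when the members were chosen, so its p values are no independent support. That holds for Smndc1 shRNA as well, since both comparisons share the EV libraries. The region, chr10:81014656-81015287, holds the whole printed Gng7 window and the upstream of 2 RefSeq starts. It stood at 39.2, 42.0 and 34.1 CPM with EV, 24.8, 25.6 and 24.5 with Smndc1 shRNA and 24.7, 26.9 and 16.9 with Atrx shRNA. All 6 shRNA libraries were below all 3 EV libraries, and the shRNA groups overlapped each other. Group means were 38.4 ± 4.01, 25.0 ± 0.546 and 22.8 ± 5.28 CPM (SD, n = 3 each). With trended offsets, which set the 9 libraries at 35.1, 38.2 and 39.3 CPM (EV), 25.3, 22.9 and 28.7 (Smndc1 shRNA) and 21.5, 26.4 and 19.9 (Atrx shRNA), the order of the groups was the same.

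With trended offsets the region fell by 0.56 ± 0.16 on the log2 scale with Smndc1 shRNA (adjusted p = 0.0438, edgeR) and by 0.73 ± 0.16 with Atrx shRNA (adjusted p = 0.00934). With TMM factors the log2 fold changes were -0.62 ± 0.24 (adjusted p = 0.395) and -0.75 ± 0.24 (adjusted p = 0.578), and neither passed. Both comparisons use the same EV libraries. The direct difference between the shRNAs was 0.13 ± 0.24 with TMM factors (95% interval from -0.34 to 0.60) and 0.18 ± 0.16 with trended offsets (adjusted p = 0.813). Each of the 9 libraries was left out in turn with trended offsets. The Smndc1 shRNA call then held in 3 of 9 fits (without Atrx shRNA replicate 1, Atrx shRNA replicate 3 or Smndc1 shRNA replicate 3), with adjusted p up to 0.219. The Atrx shRNA call held in 5 of 9 fits and was lost without replicates 1 or 3 of Atrx shRNA or replicates 1 or 2 of EV, with adjusted p up to 0.124. The log2 fold changes in those fits kept to -0.64 to -0.48 and -0.85 to -0.66. Without replicate 3 of every group, the libraries with less signal in strong regions, the trended values were -0.60 (adjusted p = 0.0359) and -0.62 (adjusted p = 0.0519).

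The other regions of Gng7 are weaker. The region at chr10:80999678-81000341, 1024 bp inside the gene from its downstream RefSeq start, stood at 12.6, 13 and 12.5 CPM with EV, 11.8, 10.7 and 9.64 with Smndc1 shRNA and 11.9, 9.54 and 9.40 with Atrx shRNA. All 6 shRNA libraries were below the 3 EV libraries, with log2 fold changes of -0.25 ± 0.24 and -0.30 ± 0.24 that did not pass (adjusted p = 0.867 and 0.955, edgeR). With levels from trended offsets each shRNA group overlapped EV there. A neighbouring region had group means of 6.36 to 7.78 CPM. The fourth, 9618 bp upstream of Gng7, lies in Diras1 within 1 kb of the Diras1 start and had group means of 11.2 to 13.4 CPM. The gene-end regions whose log2 CPM followed the Gng7 start most closely over the 9 libraries, of 12638 compared, were those of Srgap3 (r = 0.951), Os9 (r = 0.949) and Pla2g15 (r = 0.935). These correlations are descriptions, and the 9 points share their libraries and their differences in signal contrast.

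**Figure D3:**
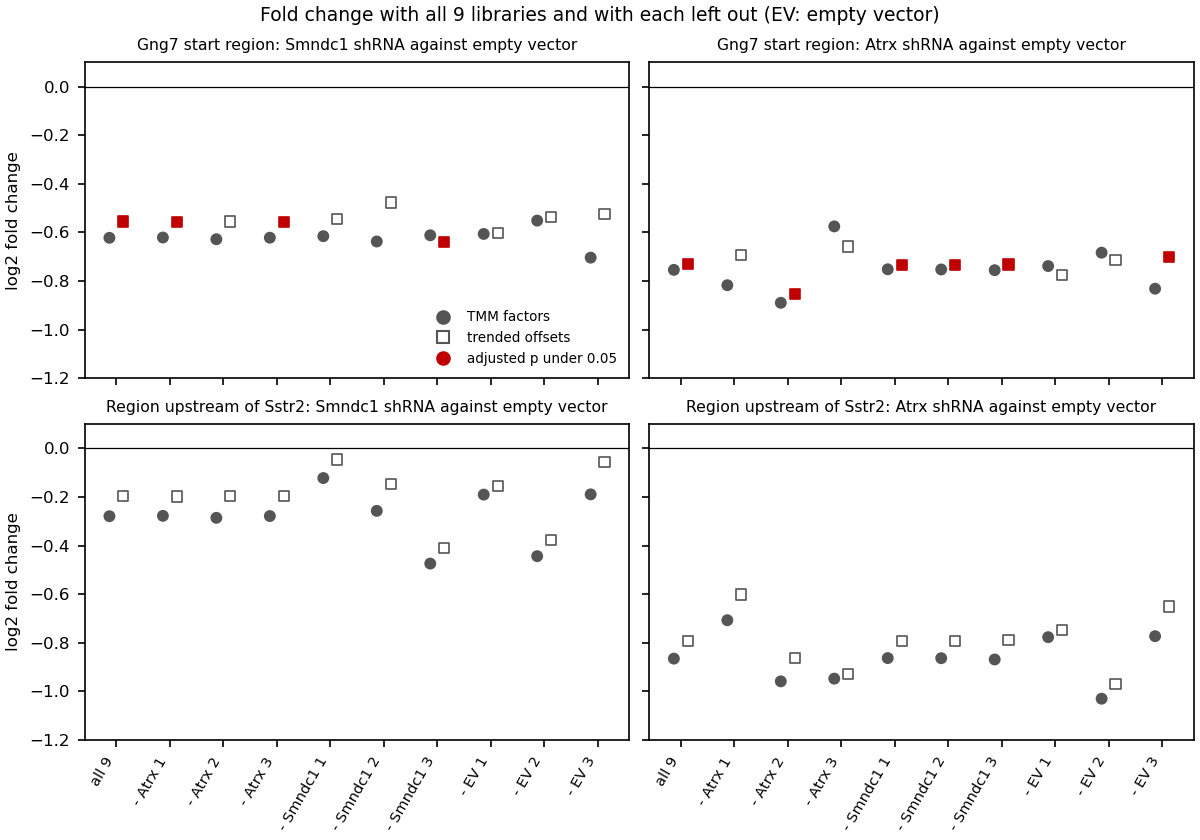
Log2 fold change (vertical axis) of the Gng7 start region (top) and the region upstream of Sstr2 (bottom), with all 9 libraries and with each library left out, for Smndc1 shRNA (left) and Atrx shRNA (right) against empty vector (EV). Grey circles use TMM factors, open squares trended offsets, and red marks an adjusted p under 0.05. All values lie below 0, and red appears only among the trended values of the Gng7 start.

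Counted together, 0 of the 30 member regions were called by edgeR with TMM factors in any of the 3 comparisons. Over all regions tested, 0.156% were called with Smndc1 shRNA against EV, 0.0% with Atrx shRNA against EV and 0.0759% between the shRNAs. DESeq2, which gave an adjusted p to 24, 30 and 21 of the 30, called 0 of those in each comparison, against 0.042%, 0.0% and 0.037% of all regions with one. At an unadjusted p under 0.05 edgeR had 4, 2 and 1 of the 30, against 8.09%, 5.75% and 5.4% of all regions, and DESeq2 had 2, 2 and 1, against 6.87%, 4.74% and 4.34%. With trended offsets 1, 1 and 0 of the 30 were called, against 1.11%, 0.253% and 0.564% of all regions. Both times this was the Gng7 start, which was lower, as were 0.693% of all regions with Smndc1 shRNA and 0.0672% with Atrx shRNA. That call with Atrx shRNA was known when the members were chosen, so nothing is read from these counts against the shares.

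The groups did not overlap in 6 of the 30 regions with Smndc1 shRNA (5 lower and 1 higher than EV), against 12.8% of all regions (7.03% lower and 5.76% higher). They did not overlap in 7 with Atrx shRNA (6 lower and 1 higher), against 10.5% (5.65% lower and 4.82% higher), and in 1 between the shRNAs, against 10.2%. With levels from the trended offsets the counts were 7, 3 and 2, against 16.1%, 14.9% and 13.9%. The median log2 fold change of the 30 regions was -0.18 with Smndc1 shRNA (22 of 30 negative) and -0.14 with Atrx shRNA (20 of 30 negative). Over all 80345 regions tested it was 0.02 and 0.01, with 38715 and 39636 negative. Between the shRNAs the medians were 0.07 and 0.00. With trended offsets the member medians were -0.14, -0.10 and 0.10, and those over all regions were 0.01, -0.01 and 0.01. The 30 regions are not independent, since several share a gene, and both medians against EV rest on the same EV libraries. The members were also chosen with the lower Gng7 call with Atrx shRNA known.

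**Figure D4:**
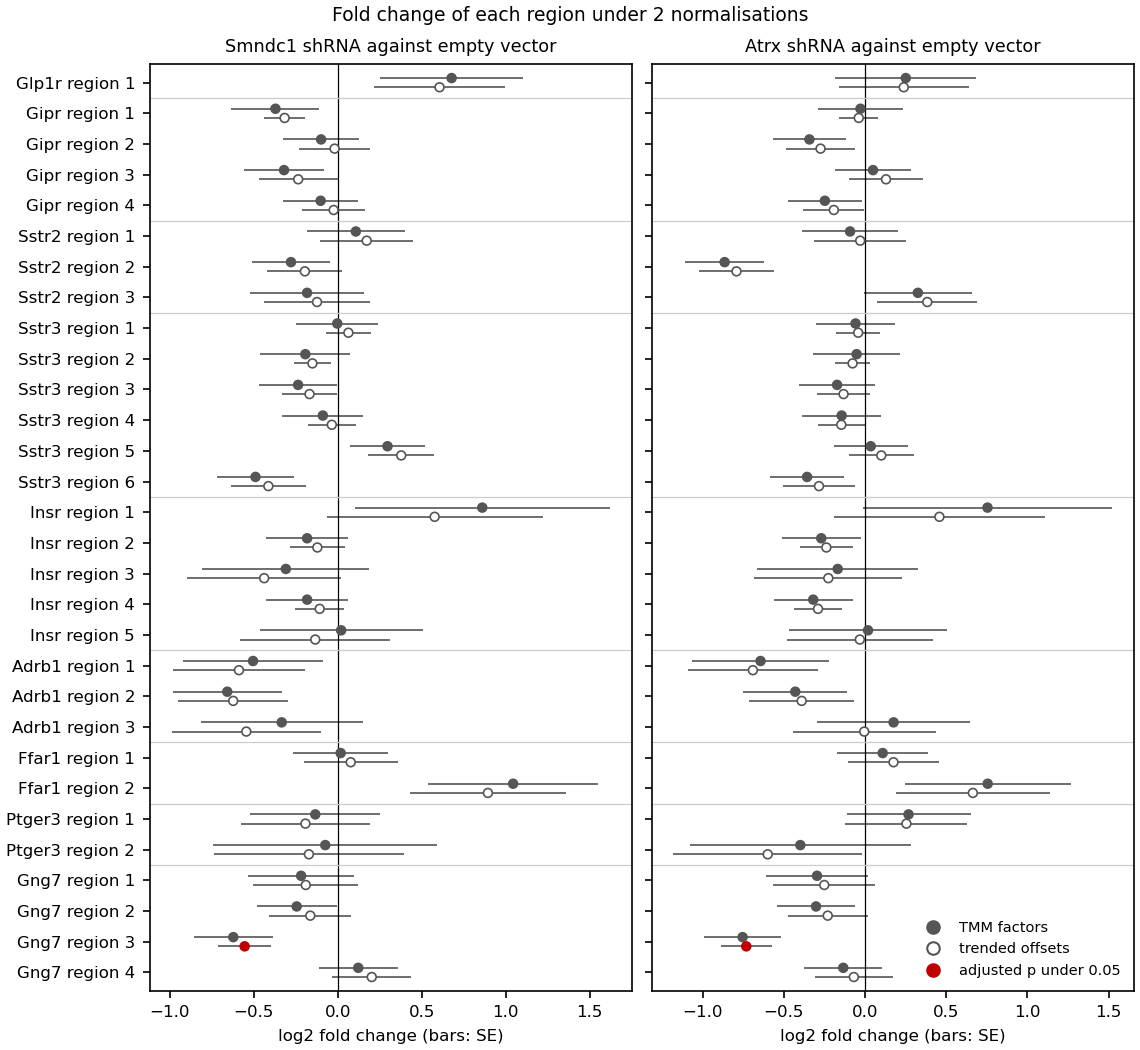
Log2 fold change of each of the 30 regions with Smndc1 shRNA (left) and Atrx shRNA (right) against empty vector. Filled points use TMM factors, open points trended offsets, bars are SE and red marks an adjusted p under 0.05. The points run from -0.87 at the region upstream of Sstr2 to 1.04 at the region of Ffar1 within Cd22, and the red points are those of the Gng7 start.

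A wider list of 57 genes that act on glucagon release or downstream of these receptors was described in the same way. Of these, 52 had a region, 290 regions in all with 288 tested, and Sstr1, Ptger2, Ghsr and Prkar1a were among those with none. Of these 1 region is shared with the members, that between Ffar1 and Ffar3. With TMM factors edgeR called 0 of the 288 regions with Smndc1 shRNA, 0 with Atrx shRNA and 1 between the shRNAs, and DESeq2 called 0 of the 193, 288 and 155 to which it gave an adjusted p. At an unadjusted p under 0.05 edgeR had 29, 18 and 27 (10.1%, 6.25% and 9.38%), against 8.09%, 5.75% and 5.4% of all regions. DESeq2 had 21, 19 and 20 (7.29%, 6.6% and 6.94%), against 6.87%, 4.74% and 4.34%. The median log2 fold changes were 0.07, 0.03 and 0.01.

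The region that passed lies in Gnao1, which encodes the inhibitory G protein alpha subunit Go, at chr8:93945750-93946625. It stood at 21.0, 21.0 and 22.7 CPM with Smndc1 shRNA and 12.0, 9.35 and 10.1 with Atrx shRNA, with EV between them at 17.9, 14.4 and 18.9. The difference was 1.04 ± 0.23 (adjusted p = 0.0466, edgeR), and it did not pass with DESeq2 (adjusted p = 0.0989) or with DESeq2's size factors in edgeR (adjusted p = 0.0743) and passed in 1 of the 9 fits that leave out a library. With trended offsets it passed in 8 of 9 such fits (1.05 ± 0.22, adjusted p = 0.00179 with all libraries). The smallest p values of the other comparisons were at Adcy5 and Adra1b. At Adcy5, an adenylyl cyclase gene, the change with Smndc1 shRNA was -0.91 ± 0.23 (adjusted p = 0.0756, edgeR). In Adra1b, an alpha-1 adrenergic receptor gene, the region was at chr11:43795921-43796647, with Atrx shRNA (0.90 ± 0.26, adjusted p = 0.441).

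With trended offsets 8 of the 288 regions were called with Smndc1 shRNA, 4 higher and 4 lower, against 0.413% and 0.693% of all regions. With Atrx shRNA 1 was called, lower, against 0.0672% of all regions. Between the shRNAs 4 were, 1 higher and 3 lower with Smndc1 shRNA, against 0.19% and 0.373% of all regions. With Smndc1 shRNA a region at chr16:4447221-4447952 near Adcy9, an adenylyl cyclase gene, fell from 38.4 ± 3.51 to 23.0 ± 5.12 CPM (-0.68 ± 0.15, adjusted p = 0.00499, edgeR). Its midpoint lies at -27088.5 bp from the Adcy9 start, upstream of the gene. A region in Irs2, which encodes an adaptor of the insulin receptor, rose from 15.3 ± 1.47 to 25.5 ± 5.14 CPM (0.81 ± 0.19, adjusted p = 0.00563). A region in Gng12, another gamma subunit gene, fell (-0.53 ± 0.13, adjusted p = 0.0131) and a region in Pde3b, which encodes a phosphodiesterase that breaks down cyclic AMP, rose (0.59 ± 0.15, adjusted p = 0.0156). In TMM-normalised levels the Pde3b groups overlapped, at 29.9 ± 7.41 CPM with EV and 44.0 ± 17.3 with Smndc1 shRNA. With 1 library left out, these trended calls held in 7 of 9 fits at Adcy9 and Irs2, 6 at Gng12 and 4 at Pde3b, with adjusted p up to 0.173, 0.101, 0.169 and 0.212. With Atrx shRNA a region beside Ptger1, a prostaglandin E2 receptor gene, fell from 28.2 ± 6.32 to 16.2 ± 0.475 CPM (-0.74 ± 0.18, adjusted p = 0.031), a call that held in 4 of 9 such fits (adjusted p up to 0.391). Between the shRNAs the calls besides Gnao1 were lower with Smndc1 shRNA. The first was at chr11:43889121-43889867 in Adra1b, not the Adra1b region named above (-0.48 ± 0.12, adjusted p = 0.0246, edgeR). In TMM-normalised levels these Adra1b groups overlapped, at 47.9 ± 10.4 CPM with Smndc1 shRNA and 70.0 ± 19.8 with Atrx shRNA. The others were at Adcy5 (-0.85 ± 0.22, adjusted p = 0.0329) and the region upstream of Adcy9 (-0.59 ± 0.16, adjusted p = 0.0403). These held in 6, 2 and 2 of the 9 fits, with adjusted p up to 0.212, 0.34 and 0.481. None of these calls from trended offsets was made with TMM factors except that of Gnao1.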

How the data were processed

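Open chromatin was measured by ATAC-seq with 75 bp paired-end reads in 9 alphaTC1 libraries, 3 per group. The authors deposited raw counts per consensus region and, in a second file, the positions of the regions on mm10 (GRCm38). MACS2 2.2.7.1, bedtools 2.27.1, Bowtie2 2.4.4, deepTools 3.5.1 and SAMtools 2.8.0 are named, per the submitters' processing notes. Which tool did what, how the consensus was built and the unit counted (reads, fragments or insertions) is not given in the sources used here. If reads were counted at both ends of a fragment, counts overstate the number of independent molecules. All count columns were matched to a labelled library.

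The counts were tested with edgeR 4.0.16 (quasi-likelihood F test, robust, TMM factors, R 4.3.3) in 1 fit of all 9 libraries with 1 coefficient per group. A minimum count of 10 (filterByExpr) kept 80345 regions and removed 482. All 30 member regions passed. Adjusted p values are Benjamini-Hochberg over all 80345, and a region was called under 0.05. The script was tested on simulated data. SE is the absolute log2 fold change divided by the square root of its F statistic, and the 95% intervals reach 1.96 SE to either side. Trended offsets come from loess fits, 1 per library, of the natural log of the count plus a small constant. The fits run over the region's mean log2 CPM across the libraries and are centred by region. Other alternatives were DESeq2 1.42.0, its size factors in edgeR (RLE), no filter, the 6 libraries of a comparison, the replicate number as a block, leaving out each library, and leaving out all 3 libraries numbered 3. This last setting was combined with trended offsets after seeing the data. The p values measure the spread between these libraries.

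Gene bounds, starts and start windows come from RefSeq tables (GRCm38.p6). All 10 members and all 57 genes of the wider list matched a gene there, and the start windows of 8 members matched by symbol. For each member the text gives the region at the start, the region with the highest mean level and any called region, with others by range. Likeness to a called region is Pearson's r of log2 CPM (prior count 2). Of the wider list, up to 4 called regions per comparison are named, or the 1 with the smallest p. Members, lists and rules were chosen with earlier results of these data known, the Gng7 call with Atrx shRNA among them. Python 3.11.15 with pandas 2.3.3, numpy 2.4.6 and matplotlib 3.10.9 made the tables and figures.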

Additional observations from a re-analysis of the deposited data

How the results depend on the processing

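No count of called member regions changed with DESeq2, RLE factors, no filter or 6 libraries (0 in each comparison). With Smndc1 shRNA against empty vector 1 member region was called with trended offsets, 1 with the replicate block, and 1 with trended offsets and without replicate 3 of every group. With Atrx shRNA the counts were 1 with trended offsets and 2 with the replicate block. With each library left out in turn the member counts were 0 to 1, over TMM and trended fits. In the wider list of 288 regions, the counts with Smndc1 shRNA against empty vector were 8 with trended offsets, 8 with the block, 5 without replicate 3 of every group and 11 with both of the last changes of offsets and libraries, against 0. With Atrx shRNA they were 1, 2, 2 and 3, against 0. Between the shRNAs they were 4, 5, 3 and 5, and 0 with DESeq2 and 0 with RLE factors, against 1. Leaving out 1 library gave 0 to 2 with Smndc1 shRNA, 0 with Atrx shRNA and 0 to 1 between the shRNAs with TMM factors, and 1 to 9 (7 without Atrx shRNA replicate 1), 0 to 4 and 0 to 4 with trended offsets. The cause of these shifts was not tested.

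The labels do not say that a replicate number pairs libraries, so the block is given only here. Deviations from the group means correlated at -0.04 to 0.42 between libraries with the same number (median 0.16). Between others the range was -0.37 to 0.30 (median -0.04). The highest values, 0.31, 0.35 and 0.42, were those among the libraries numbered 3, which also held less signal in strong regions. Whether the numbers mark a shared batch was not tested. With the replicate block the Gng7 start region passed at -0.62 (adjusted p = 0.0235, edgeR) with Smndc1 shRNA and at -0.76 (adjusted p = 0.00951) with Atrx shRNA, and the region upstream of Sstr2 passed at -0.87 (adjusted p = 0.0296) with Atrx shRNA. Over all regions 1.58%, 0.288% and 0.764% were called with the block in the 3 comparisons.

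Among the named regions, signs turned only where the change was within its SE of 0. Without replicate 3 of every group, the Sstr3 start region with Atrx shRNA was at 0.022 (0.032 with trended offsets), the region between Ffar1 and Ffar3 with Smndc1 shRNA at -0.33 (-0.23) and the Gng7 start between the shRNAs at -0.049. With the block the Ffar1 value was -0.023. With 1 library left out, values are given first with TMM factors and then with trended offsets. With Atrx shRNA they ran from -0.27 to 0.12 and from -0.099 to 0.050 (0.027 without empty vector replicate 2) for the strongest Gipr region, and from -0.21 to 0.11 and from -0.13 to -0.018 for the strongest Sstr3 region. For the Sstr3 region at chr15:78541505-78542321 they ran from -0.25 to -0.12 and from -0.22 to 0.00042, for that at chr15:78543984-78545106 from -0.25 to -0.0019 and from -0.25 to 0.0064, and for the Ffar1 region from -0.0039 to 0.17 and from 0.044 to 0.25. With Smndc1 shRNA the Sstr3 region at chr15:78543984-78545106 ran from -0.15 to 0.0063 and from -0.22 to 0.12 (0.067 and 0.042 without Smndc1 shRNA replicates 1 and 2), the strongest Insr region from -0.33 to 0.017 and from -0.22 to 0.015 (0.013 without Smndc1 shRNA replicate 2), and the Ffar1 region from -0.38 to 0.33 and from -0.28 to 0.38 (-0.054 without empty vector replicate 1). Between the shRNAs the Gng7 start ran from -0.046 to 0.26 and from 0.094 to 0.30.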
